A study of Mus musculus with 160 samples.

Results

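The smooth muscle contractile genes described here are 10 of the 39179 genes counted in mouse distal colon, namely *Acta2*, *Actg2*, *Myh11*, *Des*, *Tagln*, *Cnn1*, *Lmod1*, *Mylk*, *Synpo2* and *Myocd*. They were chosen by name and matched by mapping the Ensembl identifiers of the count files to mouse symbols, without a threshold on any measured value, although earlier results of these data were known when the list was made. Each of the 10 matched 1 identifier and passed the filter on low counts in every comparison. The 160 libraries of distal colon RNA came from mice of 4 knockout lines in a study of genes that regulate inflammatory bowel disease, which used colitis induced by dextran sulfate sodium (DSS), a sulfated polysaccharide that injures the colon lining when given in drinking water. Knockout (KO) animals were homozygous and were compared with wild-type (WT) animals of the same line.

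The *Nckap1l* line, called HEM1 in the labels, held 16 KO libraries (4 females, 12 males) and 15 WT libraries (8 females, 7 males). The *Dock2* line held 18 KO libraries (8 females, 10 males) and 24 WT libraries (12 of each sex). The *Gpsm3* line held 20 KO and 20 WT libraries and the *Dok3* line 26 KO and 21 WT libraries, all labelled male. The labelled strain was C57BL6/J in the *Nckap1l*, *Dock2* and *Gpsm3* lines and 129 in the *Dok3* line. The protocol was 5 days of DSS, at 3% in the *Dock2* and *Gpsm3* lines, 3.5% in the *Dok3* line and, by the study's methods only, 2.8% in the *Nckap1l* line, and then 5 days of water with tissue on day 10, or 7 days of water and tissue on day 12 in the *Nckap1l* line. For the *Dok3* line the methods describe a first round at 3% and 3.5% afterwards, while the labels give 3.5% for all its libraries. The mice were 8 to 10 weeks old by the study's methods, which took RNA from the distal 2 cm of the trimmed colon and used both DSS-treated and untreated animals. The labels do not say which libraries came from treated animals, so each group pools both. The knockouts came from existing models, crossed anew to C57BL6/J females and then bred between heterozygotes, and genotypes shared cages.

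The muscle wall of the colon is built of smooth muscle cells, which shorten when myosin filaments pull on actin filaments. Calcium bound to calmodulin activates myosin light chain kinase, which phosphorylates the myosin regulatory light chain and starts contraction, while calponin and related proteins restrain or stabilise the filaments. Myocardin switches these genes on together with serum response factor, which binds CArG boxes in their regulatory DNA, and loss of the whole set is the usual sign of a smooth muscle cell that has left its contractile state.

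Total counts per library ran from 4344988 to 19993833 (median 15989625.5), so that 3 counts corresponded to between 0.15 and 0.69 counts per 1000000 of the library total (CPM), far below the lowest value of any member. The knocked-out gene was the first check of the labels, and its KO and WT ranges overlapped in every line. It ran from 4.66 to 69.9 CPM (median 14.8) in KO and from 13.7 to 134 CPM (median 27.6) in WT libraries of the *Nckap1l* line. Its fitted level was lower in KO libraries of each line, with a log2 change of -1.09 ± 0.41 (SE) for *Nckap1l*, -0.62 ± 0.17 for *Dock2*, -2.06 ± 0.28 for *Gpsm3* and -0.48 ± 0.39 for *Dok3*. Only *Gpsm3* passed the test (adjusted p = 1e-04 by the quasi-likelihood test of edgeR, Benjamini-Hochberg over all genes tested). In 5 libraries of the *Dok3* line the sex genes went against the label. In 35 of the 160 libraries the striated muscle creatine kinase *Ckm* exceeded 10 CPM, and 32 of these also held more than 10 CPM of the skin keratin *Krt5*. The striated muscle markers (12 genes) summed to a median of 4509 CPM in these 35 libraries against 24.3 CPM in the other 125, and the skin markers (7 genes) to 3732 against 8.60 CPM. Of the 35 libraries, 17 came from the *Nckap1l* line (8 KO, 9 WT), so the comparisons are also given with the 35 left out. Libraries with *Ckm* means these 35 in what follows, and libraries without *Ckm* the other 125, in which *Ckm* was at or under 10 CPM.

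Levels were compared between genes per kilobase of exon, and both actins and transgelin then stood at the top. *Actg2* (chr6:83512905-83536265, minus strand), the enteric gamma actin of smooth muscle, had a median of 406 CPM per kilobase of exon over the 160 libraries, and *Acta2* (chr19:34241090-34255590, minus strand), the alpha actin of smooth muscle, had 402. *Actg2* stood above *Acta2* in only 72 of the 160 libraries, so the order of these neighbours was not stable. *Tagln* (chr9:45929619-45936058, minus strand), which encodes the actin cross-linking protein transgelin (SM22), followed with a median of 382 CPM per kilobase and lay under *Acta2* in 128 libraries. *Cnn1* (chr9:22099216-22109630, plus strand), the calponin that binds actin and inhibits myosin ATPase, had 153 CPM per kilobase. *Lmod1* (chr1:135324807-135368065, plus strand), a leiomodin that nucleates actin filaments, had 16.9 CPM per kilobase. Coordinates are those of the GRCm38 annotation.

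Without the division by length, *Acta2* ran from 163 to 1838 CPM (median 884) and *Tagln* from 127 to 1382 CPM (median 759). *Actg2* ran from 58.3 to 1419 CPM (median 631), and its highest library held 24.4 times its lowest, the widest range of the 10, against 11.3 times for *Acta2*. *Cnn1* ran from 42.6 to 762 CPM (median 418) and *Lmod1* from 17.1 to 128 CPM (median 66.9). By the coefficient of variation the spread was more alike, from 30.6% for *Cnn1* to 42.0% for *Synpo2*. The reads of *Tagln* need care, because 48.3% of the 100-base windows along its exons also lie in genes of the opposite strand, among them *Pcsk7*, and whether the counting used strand is not given in the sources used here. The corresponding share was 3.28% for *Des*, 2.66% for *Mylk* and 0 for the other 7 genes, and no window of *Acta2* was shared with *Actg2*.

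Promoter sequence from RefSeq (GRCm38.p6, from 250 bases before to 50 after the start of the RefSeq entry) was matched for 6 members, *Acta2*, *Cnn1*, *Des*, *Lmod1*, *Mylk* and *Synpo2*. This start lay within 40 bases of the start of the annotated gene span for *Cnn1*, *Des*, *Lmod1* and *Synpo2*, but 217 bases inside the span for *Acta2* and 39740 bases inside it for *Mylk*. The CArG box was searched on both strands. The strict motif was found in none of the 6 and in 1.63% of the 32851 mouse promoters of this length. After that result was seen, 1 C or G was allowed among its inner letters, and 2 such boxes were then found in the *Acta2* promoter and none in the other 5. At least 1 such box was present in 9.98% of all promoters and 2 or more in 0.822%. The *Acta2* promoter is shown because it was the only one of the 6 with a match, and it lies at chr19:34255324-34255623 (GRCm38) on the minus strand, written from 5′ to 3′ with both boxes in capitals.
Acta2 promoter: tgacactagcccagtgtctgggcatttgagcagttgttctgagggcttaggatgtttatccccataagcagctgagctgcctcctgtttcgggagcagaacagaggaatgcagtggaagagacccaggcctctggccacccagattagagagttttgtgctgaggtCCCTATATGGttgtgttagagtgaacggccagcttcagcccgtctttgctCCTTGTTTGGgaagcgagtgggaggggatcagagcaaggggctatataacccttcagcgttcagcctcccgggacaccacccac
The first box begins 84 bases and the second 34 bases before the RefSeq start (position 34255373). A match of letters is a description of the window and does not show that a factor binds there, and the absence of a match says only that these letters are not in this window.

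The thick filament was represented by *Myh11* (chr16:14194535-14291372, minus strand), the smooth muscle myosin heavy chain. *Mylk* (chr16:34745210-35002420, plus strand) encodes the kinase that activates this myosin. *Myh11* ran from 419 to 5133 CPM (median 2080), and with its long transcript it supplied a median of 32.0% of the summed counts of the 10. Per kilobase its median was 274 CPM, below *Tagln* in 157 of the 160 libraries. *Mylk* ran from 185 to 1361 CPM (median 632) and had a median of 56.1 CPM per kilobase.

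*Des* (chr1:75360329-75368579, plus strand), the intermediate filament protein desmin, which striated muscle makes as well, ran from 84.3 to 1606 CPM (median 807) and had 215 CPM per kilobase. *Synpo2* (chr3:123076519-123236149, minus strand), an actin-bundling protein of muscle, ran from 63.0 to 865 CPM (median 324) with 24.8 CPM per kilobase. *Myocd* (chr11:65176561-65269989, minus strand), which encodes the coactivator myocardin, ran from 9.37 to 78.7 CPM (median 33.3) and was the lowest of the 10 per kilobase, with 5.18 CPM. *Des* exceeded *Cnn1* in all 160 libraries and *Mylk* exceeded *Synpo2* in all 160, so the lower part of the order was nearly fixed.

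Summed over the 10 genes, the share of the library's counts is used here as a rough measure of how much muscle wall RNA a sample held. The measure is not specific to the wall, since striated muscle makes *Des* as well. The share ran from 0.117% to 1.41% of the counts, with a median of 0.659%. In tissue RNA, fewer muscle cells and less contractile RNA in each cell cannot be told apart. In the *Nckap1l* line the share ran from 0.269% to 1.05% (median 0.576%) in KO and from 0.359% to 1.30% (median 0.945%) in WT libraries. The median of the WT group lay above all but 1 of the KO libraries, although the groups overlapped.

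The other lines showed smaller gaps between the medians. The share had a median of 0.732% in the 18 KO and 0.757% in the 24 WT libraries of the *Dock2* line. It was 0.631% in KO and 0.703% in WT libraries of the *Gpsm3* line, and 0.590% in KO and 0.638% in WT libraries of the *Dok3* line. The *Nckap1l* WT group had the highest median of the 8 groups for each of the 10 genes. For each gene the 8 groups were put in order of their medians, and 69 of the 70 gaps between neighbours were smaller than the larger SD of the groups on either side.

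**Figure D1:**
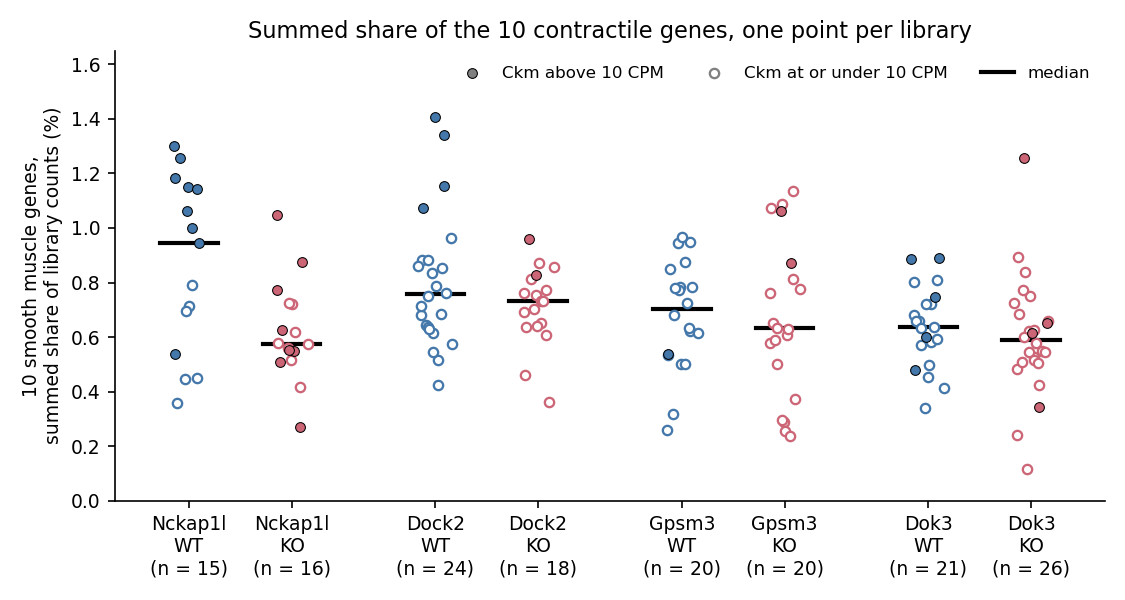
Summed share of library counts (%, linear axis) of the 10 contractile genes, one point per library, in WT and KO groups of 4 lines; filled points are libraries with *Ckm* above 10 CPM and bars are medians. The *Nckap1l* WT median (0.945%) is the highest of the 8, and 8 of the 9 filled points of that group lie at or above it.

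The libraries with *Ckm* above 10 CPM had a higher share (median 0.885%, n = 35) than the others (median 0.638%, n = 125), and the same was true within the *Nckap1l* WT group (median 1.14% in 9 libraries against 0.574% in 6). Within the *Nckap1l* KO group the medians were 0.589% in the 8 libraries with *Ckm* and 0.576% in the 8 without. Among libraries without *Ckm* the KO and WT medians were 0.576% and 0.574%, but this division is no test of the genotype, since it left 1 of the 14 libraries of number block 1 (described with the blocks) and *Ckm* varied with the members. The members did not differ equally between libraries with and without *Ckm*. *Synpo2* had a median of 565 CPM in the 35 libraries against 307 CPM in the 125, *Myh11* had 3060 against 1960 CPM, *Des* 1039 against 755 CPM, *Actg2* 698 against 611 CPM and *Cnn1* 414 against 420 CPM. Among the libraries with *Ckm* at or under 10 CPM its level still varied with that of *Myh11*, with r = 0.62 in the *Nckap1l* line (14 libraries, rho 0.45, adjusted permutation p = 0.0263), 0.89 in *Dock2* (rho 0.85), 0.96 in *Gpsm3* (rho 0.95) and 0.91 in *Dok3* (rho 0.86), the last 3 with an adjusted permutation p of 2.8e-05. With the 2 libraries farthest from the median *Myh11* left out, r was 0.31, 0.85, 0.95 and 0.84, so that in the *Nckap1l* line the relation rested on those 2. The division by *Ckm* is therefore not independent of the level of the members in the *Dock2*, *Gpsm3* and *Dok3* lines. In the *Nckap1l* line this is less clear below 10 CPM. Over all 31 libraries of that line r was 0.55 (adjusted permutation p = 0.00247, rho 0.58). This limits the values given without these libraries. The part that striated muscle RNA plays in these differences was not tested.

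The first comparison asked whether loss of *Nckap1l*, which encodes the hematopoietic WAVE complex subunit HEM1, was accompanied by a change in muscle wall genes. All 10 members had lower fitted levels in KO than in WT libraries (16 against 15, edgeR with sex as a covariate), with log2 changes from -0.55 to -0.29 and a median of -0.42, against a median of 0.008 over all 17947 genes tested. None passed the adjusted threshold of 0.05 (lowest adjusted p = 0.913), and 0% of all genes did. DESeq2 and limma-voom also called 0 of the 10 at the adjusted threshold, where they called 0.117% and 0% of all genes. At an unadjusted p under 0.05, edgeR counted 7 of the 10, all lower in KO, against 4.50% of all genes in either direction and 2.35% of all genes lower in KO. DESeq2 counted 7 (5.03% of all genes) and limma-voom 5 (3.94%). The members varied together, with a median Spearman's rho of 0.83 over their 45 pairs after group means were removed. Counts among the 10, here and in what follows, are therefore not counts of independent results.

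Among the thin filament genes, *Acta2* ran from 394 to 1226 CPM (median 819) in KO and from 575 to 1653 CPM (median 1202) in WT libraries. The WT median lay near the top of the KO range, and the log2 change was -0.42 ± 0.17 (SE). *Actg2* ran from 190 to 926 CPM (median 589) in KO and from 320 to 1174 CPM (median 899) in WT libraries, a change of -0.42 ± 0.20. *Tagln* had medians of 659 CPM in KO and 1039 CPM in WT libraries (-0.37 ± 0.16). For *Cnn1* the medians were closer, 385 against 500 CPM (-0.29 ± 0.17), and it was 1 of the 3 members with an unadjusted p above 0.05. *Lmod1* had medians of 57.8 and 90.6 CPM (-0.42 ± 0.16).

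*Myh11* ran from 745 to 3701 CPM (median 1677) in KO and from 961 to 4584 CPM (median 3072) in WT libraries, a log2 change of -0.54 ± 0.23. Its kinase *Mylk* ran from 318 to 836 CPM (median 531) in KO and from 369 to 1217 CPM (median 886) in WT libraries, and its WT median lay above every KO library (-0.52 ± 0.18). *Mylk* had the lowest unadjusted p of the 10. *Synpo2* showed the largest fitted change, with medians of 284 and 582 CPM (-0.55 ± 0.23), and its WT median also lay above every KO library. The KO and WT ranges overlapped for all 10 members. *Des* had medians of 801 and 935 CPM (-0.30 ± 0.21) and *Myocd* of 31.7 and 47.6 CPM (-0.34 ± 0.19), and these were the other members above an unadjusted p of 0.05.

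**Figure D2:**
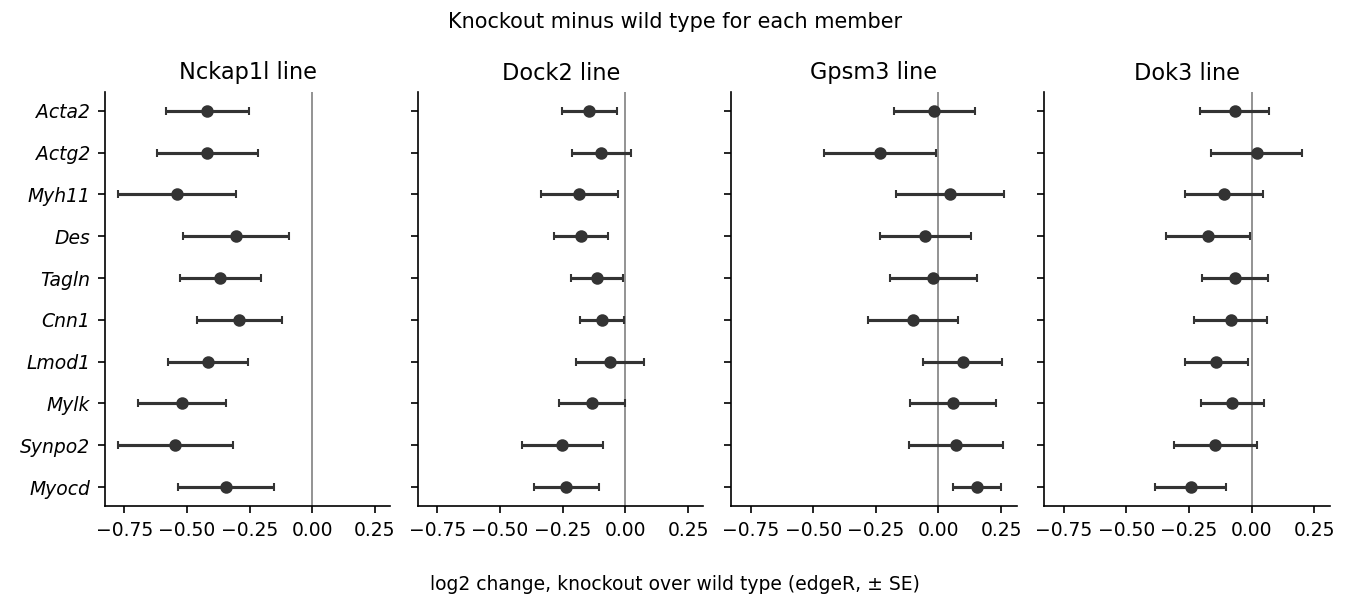
Log2 change of each member in KO over WT libraries (edgeR, horizontal axis) with its SE as bars, in the 4 lines. All 10 points lie below 0 in the *Nckap1l* line, from -0.55 to -0.29, and none passes the adjusted threshold in any line.

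Without the libraries with *Ckm* above 10 CPM, 8 KO and 6 WT libraries were left, and the median change of the 10 members went from -0.42 to -0.04 (*Acta2* 0.00 ± 0.17, *Synpo2* -0.19 ± 0.17), with 0 of 10 at an unadjusted p under 0.05 by edgeR where 9.99% of all genes were. With 2 surrogate variables in the fit the changes kept their size (median -0.41), their errors shrank, and *Mylk* (adjusted p = 0.0189, -0.51 ± 0.11) and *Synpo2* (adjusted p = 0.0269, -0.54 ± 0.12) passed, while 0.518% of all genes did. Among males alone (12 KO, 7 WT) the median was -0.24, with 0 of 10 at an unadjusted p under 0.05 by edgeR (3.15% of all genes). Leaving out WT replicate 1 or WT replicate 2 lowered the number at an unadjusted p under 0.05 from 7 to 2 (median -0.34 each time), and leaving out KO replicate 15 lowered it to 3 (median -0.36).

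In the wider list of contractile, filament and signalling genes of smooth muscle (67 tested), 63 had a change below 0 and the median was -0.19. None of them passed the adjusted threshold by edgeR and 22 had an unadjusted p under 0.05, against 4.50% of all genes in either direction. The lowest p belonged to *Pde5a*, the phosphodiesterase that degrades cyclic GMP (-0.31 ± 0.09, adjusted p = 0.633). It was followed by *Mrvi1*, the substrate through which cyclic GMP-dependent kinase restrains calcium release (-0.37 ± 0.13), and by *Myl6*, the myosin essential light chain (-0.16 ± 0.06). None of the markers of the other 13 lists passed in this comparison, and the medians of their changes ran from -0.28 (inflammation) to 0.72 (skin), with 0.28 for striated muscle and -0.03 for leukocytes. The inflammation list (8 neutrophil and inflammation genes) summed to between 4.81 and 1567 CPM in KO and between 5.07 and 2932 CPM in WT libraries, and with its log2 sum as a covariate the median of the members was -0.38.

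The sample numbers in the labels of the *Nckap1l* line fell into 3 separate runs, here called number blocks, and nothing in the labels says what they stand for. Block 1 held 6 KO and 8 WT libraries, block 2 held 5 and 4, and block 3 held 5 and 3. The striated muscle markers summed to a median of 2787 CPM in the KO and 1406 CPM in the WT libraries of block 1, and to medians between 23.1 and 31.1 CPM in the genotypes of blocks 2 and 3. *Ckm* exceeded 10 CPM in all 6 KO and in 7 of the 8 WT libraries of block 1, in 2 of 5 and 1 of 4 of block 2, and in 0 of 5 and 1 of 3 of block 3. All 10 members differed between the blocks (adjusted p from 0.000943 for *Synpo2* to 0.0141 for *Mylk*, edgeR F test), where 38.0% of all genes and 45 of the 67 genes of the wider list did. Without the libraries with *Ckm*, 14 were left, only 1 of them in block 1, and 0 of 10 members differed by the same test (0.0342% of all genes), with 5 of 10 at an unadjusted p under 0.05 (20.5% of all genes). Between the number blocks of the *Gpsm3* line 0 of 10 members differed by edgeR (7.93% of all genes), with 1 at an unadjusted p under 0.05 (23.5%), and between those of the *Dok3* line 0 of 10 did (0.125%), also with 1 at an unadjusted p under 0.05 (6.63%). The labels give the same DSS dose for both blocks of the *Dok3* line, so a difference in dose between them cannot be seen.

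The fitted level was the lowest in block 2 for every member. *Synpo2* had medians of 577, 258 and 323 CPM in blocks 1, 2 and 3. For *Myh11* they were 3365, 1523 and 1956 CPM. *Actg2* differed from these by being as high in block 3 (785 CPM) as in block 1 (781 CPM), with 495 CPM in block 2. Relative to block 1 the fitted log2 difference of block 3 was -0.66 for *Synpo2*, -0.51 for *Myh11*, 0.04 for *Actg2* and 0.05 for *Cnn1*.

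Within the blocks the KO libraries had the lower mean log2 level for all 10 members in block 1 (median difference -0.44), for 9 of 10 in block 2 (-0.19) and for all 10 in block 3 (-0.45). Sex was not taken into account within the blocks. Females were 3 of 6 KO and 6 of 8 WT libraries in block 1, and 1 of 5 and 2 of 3 in block 3. In block 2 the summed share had almost the same median in both genotypes (0.515% in KO, 0.494% in WT). Of the 30 such tests, each of 1 member in 1 block, 3 reached an exact two-sided permutation p under 0.05. These were *Lmod1* (p = 0.038) and *Mylk* (p = 0.044) in block 1 and *Synpo2* in block 3 (p = 0.0357, the smallest that 5 against 3 libraries can give), and none passed after adjustment over the 30 (lowest exact permutation p after adjustment 0.306). With the number block as a covariate the median change of the members was -0.44, 10 of 10 had an unadjusted p under 0.05 against 5.19% of all genes, and 0 passed the adjusted threshold by edgeR (0% of all genes).

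**Figure D3:**
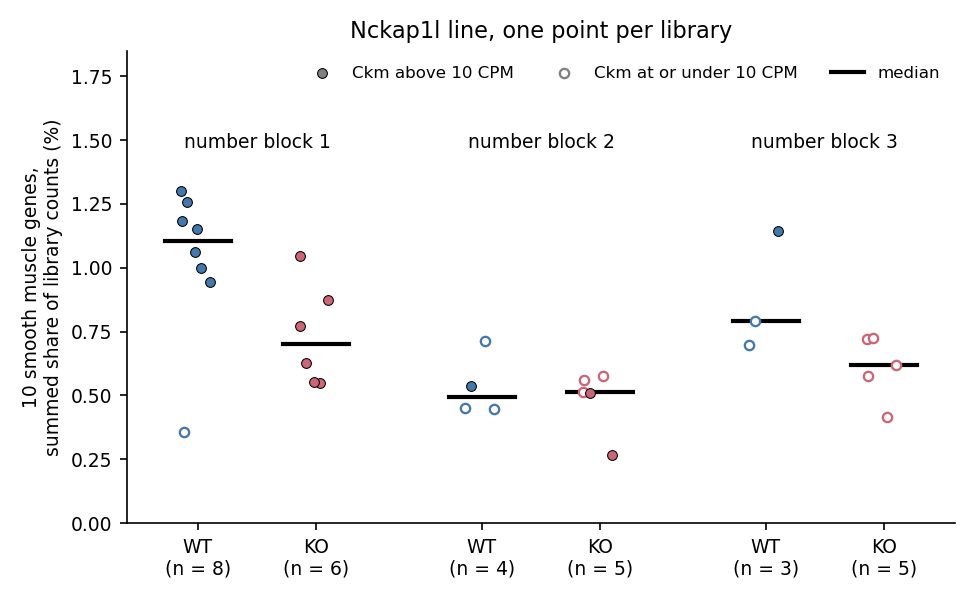
Summed share of library counts (%) of the 10 genes in the *Nckap1l* line, one point per library, by genotype within each number block; filled points are libraries with *Ckm* above 10 CPM and bars are medians. Most filled points are in block 1, where the WT median is 1.11% and the KO median 0.700%.

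In the other lines no member passed the test of KO against WT. In the *Dock2* line all 10 changes were below 0, from -0.25 (*Synpo2*) to -0.06 (*Lmod1*) with a median of -0.14, and in males alone the median was -0.29, beyond that of the *Nckap1l* males (-0.24). None passed by edgeR (0.0340% of all genes) and 0 had an unadjusted p under 0.05 (5.10%, and 0 in males alone, 5.93%). In the *Gpsm3* line 5 of 10 were below 0, from -0.23 (*Actg2*) to 0.15 (*Myocd*), with a median of 0.02. Again none passed by edgeR (0.00569% of all genes) and 0 had an unadjusted p under 0.05 (4.86%). In the *Dok3* line 9 of 10 were below 0, from -0.24 (*Myocd*) to 0.02 (*Actg2*), with a median of -0.10, and 0 of 10 passed by edgeR (0% of all genes) or had an unadjusted p under 0.05 (2.19%). At that unadjusted threshold DESeq2 counted 6.03%, 5.59% and 2.95% of all genes in the *Dock2*, *Gpsm3* and *Dok3* lines and limma-voom 4.07%, 2.91% and 1.75%, and neither counted any of the 10. The median of the *Dock2* line was -0.004 without the libraries with *Ckm* (6 of 10 below 0), that of the *Gpsm3* line -0.08 (8 of 10) and that of the *Dok3* line -0.09 (10 of 10). It was -0.04 in the *Dok3* line without the 5 libraries whose sex genes went against the label. Of the 67 genes of the wider list, 61 were below 0 for *Dock2*, 8 for *Gpsm3* and 56 for *Dok3*, and none passed.

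Whether the *Nckap1l* change differed from the others was tested by a contrast in 1 fit over all 160 libraries, the KO effect in the *Nckap1l* line minus the mean KO effect of the other 3. All 10 members were below 0 in this contrast, from -0.48 (*Myh11*) to -0.14 (*Des*) with a median of -0.32. None passed (lowest adjusted p = 0.644, edgeR), where 0.156% of all genes did. *Mylk*, *Myh11* and *Lmod1* had an unadjusted p under 0.05 and were below 0, as were 3.30% of all genes. In males alone the median was -0.14, with 8 of 10 below 0 and 0 of 10 at an unadjusted p under 0.05 by edgeR (4.22% of all genes). When the libraries with *Ckm* were left out the median was 0.09, with 1 of 10 below 0.

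Between the WT males of the 4 lines (60 libraries), 1 of 10 members differed, *Myocd* (adjusted p = 0.00469, edgeR F test), where 18.5% of all genes did. It had a median of 27.9 CPM in the *Gpsm3* line (19.1 to 41.4, n = 20), 34.9 CPM in the *Dok3* line (17.3 to 68.9, n = 21), 37.3 CPM in the *Dock2* line (23.7 to 78.7, n = 12) and 39.7 CPM in the *Nckap1l* line (22.3 to 60.1, n = 7). The ranges of all 4 lines overlapped. Without the libraries with *Ckm* (48 left) *Myocd* did not pass (adjusted p = 0.181), and 0 of 10 members and 12.2% of all genes were called, with 1 of 10 at an unadjusted p under 0.05 (24.4% of all genes). In the wider list 5 of 67 genes passed with all 60 libraries, the matrix ligand *Npnt* (adjusted p = 0.00107), the serum response factor gene *Srf* (adjusted p = 0.00191), *Vcl*, *Myl6* and the integrin gene *Itga5*. The *Dock2* and *Gpsm3* lines share the labelled strain, DSS dose and day of tissue. The *Nckap1l* line cannot be told apart from its DSS dose and day, nor the *Dok3* line from its dose and strain.

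Sex could be compared in the *Nckap1l* and *Dock2* lines. The sample numbers of most *Dock2* males came before those of the females, so sex cannot be fully told apart from number order there. In the *Dock2* line females had the higher fitted level of all 10 members (20 females, 22 males, median log2 difference 0.10), and none passed by edgeR (lowest adjusted p = 0.221, 9.75% of all genes called, and 0 of 10 at an unadjusted p under 0.05 against 25.6%). *Ckm* exceeded 10 CPM in 4 males and 2 females of this line, and the 4 libraries with the highest shares, up to 1.41%, were among them. With these 6 libraries left out, 6 of 10 members passed as higher in females, where 18.6% of all genes passed in either direction and 8.62% as higher in females, and the median difference was 0.25. *Ckm* varied with *Myh11* in this line (r = 0.89 among the 36 libraries left), so the removal was not independent of the members' levels. These passes are therefore no independent test of a sex difference.

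*Mylk* ran from 550 to 927 CPM (median 795) in the 18 females and from 339 to 917 CPM (median 588) in the 18 males without *Ckm*, and the log2 difference of 0.40 ± 0.10 passed (adjusted p = 0.00551, edgeR). *Acta2* ran from 834 to 1220 CPM (median 1060) in females and from 474 to 1131 CPM (median 873) in males (0.36 ± 0.08, adjusted p = 0.00218). The other 4 were *Synpo2* (0.39 ± 0.11), *Myh11* (0.32 ± 0.12), *Tagln* (0.24 ± 0.08) and *Cnn1* (0.23 ± 0.08). All of these ranges overlapped between the sexes. *Lmod1* (0.25 ± 0.12), *Myocd* (0.18 ± 0.10), *Des* (0.16 ± 0.08) and *Actg2* (0.10 ± 0.11) did not pass. Leaving these libraries out was added after seeing the data. In the wider list, with all libraries, 1 of 67 genes passed, *Itpr1*, which encodes an inositol trisphosphate receptor that releases calcium (0.24 ± 0.06, adjusted p = 0.00627). Over the whole line 7 of the 14 enteric neuron markers passed as higher in females, as did 4.26% of all genes, and without the libraries with *Ckm* the markers summed to a median of 191 CPM in females and 158 CPM in males. The inflammation genes summed to a median of 9.30 CPM in the same females and 36.9 CPM in the same males. The part of either in the result was not tested.

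In the *Nckap1l* line 0 of 10 members differed by sex (lowest adjusted p = 0.711 by edgeR, 0.178% of all genes called, and 0 of 10 at an unadjusted p under 0.05 against 15.7%). The median difference of females over males was 0.05 with all libraries. All 9 libraries of block 2 were male. With the number block as a covariate the direction turned, all 10 members being lower in females (median -0.29), with *Des*, *Myocd* and *Lmod1* at an unadjusted p under 0.05 (7.78% of all genes) and none past the adjusted threshold. The median was -0.25 without the libraries with *Ckm*.

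**Figure D4:**
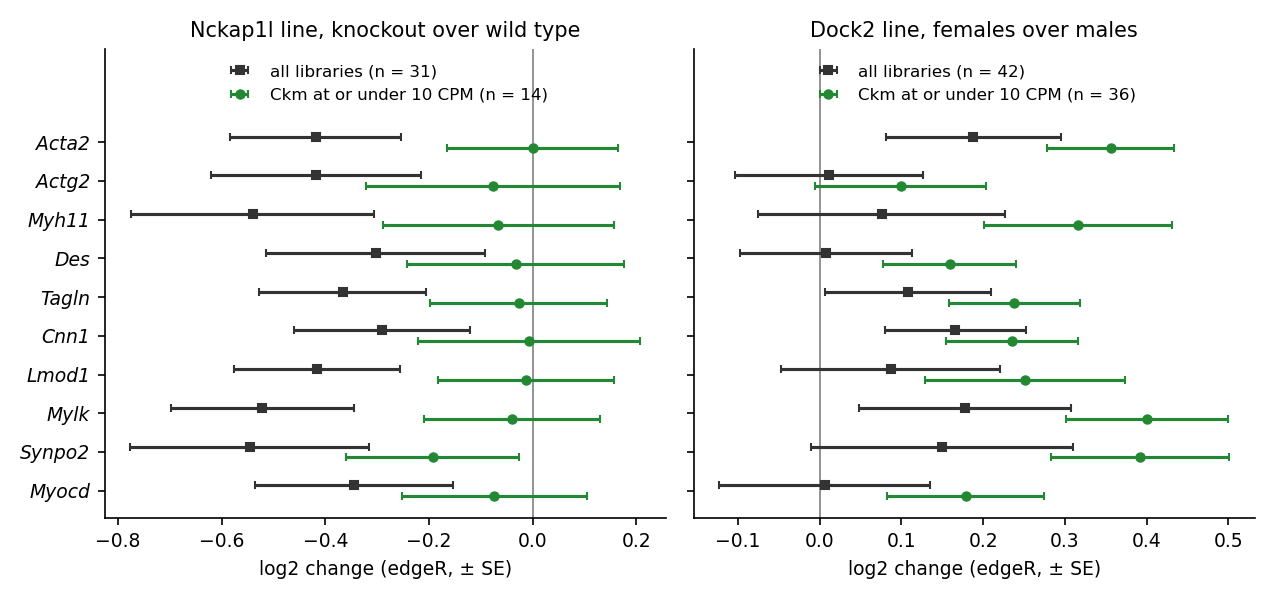
Log2 change of each member (edgeR, with its SE as bars) in all libraries (squares) and in those with *Ckm* at or under 10 CPM (circles), for KO over WT in the *Nckap1l* line and females over males in the *Dock2* line. Without the libraries with *Ckm* the *Nckap1l* median moves from -0.42 to -0.04 and the *Dock2* median from 0.10 to 0.25. In the *Dock2* line this removal was not independent of the members' levels.

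The 10 members varied together from library to library. After the mean of each group of line, genotype, sex and number block was removed, Spearman's rho over the 160 libraries ran from 0.49 to 0.97 over the 45 pairs, with a median of 0.83. *Myh11* and its kinase *Mylk* were the closest pair (0.97), followed by *Acta2* and *Tagln* (0.96) and by *Lmod1* and *Mylk* (0.92). *Actg2* was nearest to *Cnn1* (0.89) and farther from *Myh11* (0.68), *Mylk* (0.67) and *Lmod1* (0.62). *Myocd*, the coactivator, was the least alike of the 10 (mean rho 0.61 with the other 9), and it also had the lowest counts. The libraries share depth, dissection and normalization, so these values are a description.

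**Figure D5:**
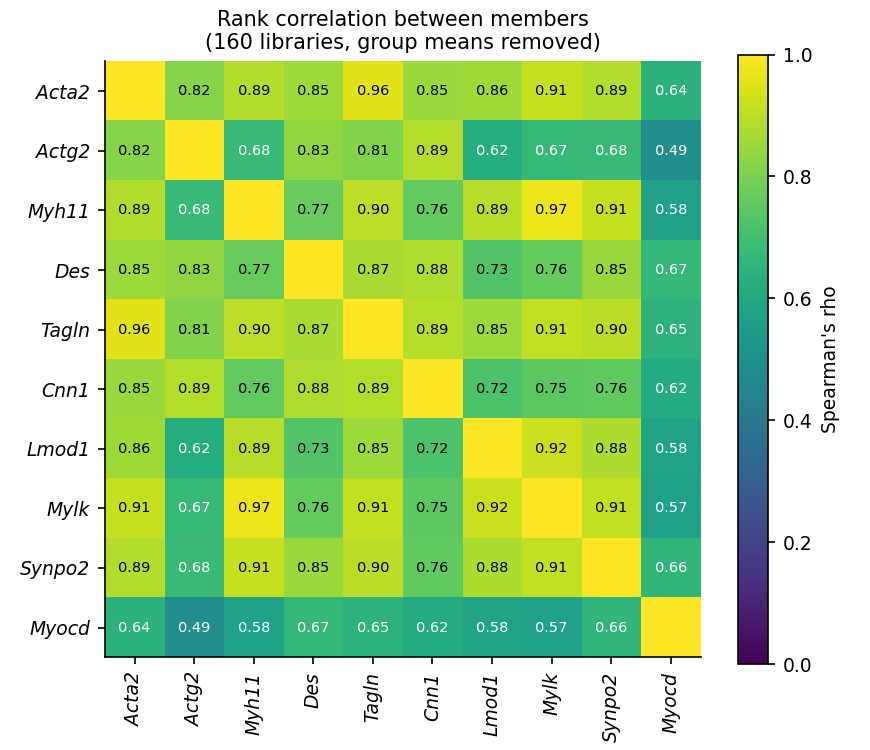
Spearman's rho between each pair of members over 160 libraries, after removing group means; the colour scale runs from 0 to 1. *Myocd* has the lowest values of the 10, 0.49 to 0.67, and the *Myh11* and *Mylk* pair the highest, 0.97.

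Tested within each line, every other member followed *Myh11* (36 relations of 72 in the family, log2 CPM, permutation p adjusted by Benjamini-Hochberg). *Mylk* had a Pearson r from 0.97 to 0.98 in the 4 lines (rho from 0.95 to 0.98, adjusted permutation p 2e-05, the smallest that 100000 permutations can give after adjustment). *Actg2* varied more between lines, with r = 0.59 in *Dock2* (rho 0.46), 0.71 in *Dok3* (rho 0.49), 0.79 in *Nckap1l* (rho 0.76) and 0.89 in *Gpsm3* (rho 0.83), and the largest permutation p for r after adjustment was 9e-05. With the 2 libraries farthest from the median of *Myh11* left out, r was 0.50 both in *Dock2* and in *Dok3*. Within the number blocks of 3 lines *Mylk* had r from 0.92 to 0.99 and *Actg2* from 0.36 (block 2 of *Dok3*) to 0.94 (block 1 of *Nckap1l*). *Myocd* had r from 0.50 (*Gpsm3*, rho 0.50) to 0.84 (*Nckap1l*, rho 0.83), with a permutation p of at most 0.0013 after adjustment. Among libraries without *Ckm* it had r = 0.44 over the 14 left in the *Nckap1l* line (permutation p = 0.144 after adjustment), and *Actg2* had r = 0.34 over the 36 left in the *Dock2* line (permutation p = 0.058 after adjustment).

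The pan-leukocyte phosphatase *Ptprc* (CD45) had a negative r with *Myh11* in each line. It was r = -0.63 in the *Gpsm3* line (rho -0.64, adjusted permutation p 2e-05), -0.59 in the *Dock2* line (rho -0.58, adjusted permutation p 9e-05) and -0.45 in the *Nckap1l* line (rho -0.42, adjusted permutation p = 0.0161). In the *Dok3* line it had r = -0.26 (adjusted permutation p = 0.096) and rho -0.47 (adjusted permutation p = 0.00181). Without the 2 farthest libraries r was -0.54, -0.52, -0.35 and -0.44 in the same order. The relation did not hold in every number block, since r was -0.71, -0.52 and 0.69 in blocks 1, 2 and 3 of the *Nckap1l* line (14, 9 and 8 libraries), -0.45 and -0.76 in the blocks of *Gpsm3* and -0.11 and -0.71 in those of *Dok3*. The epithelial adhesion molecule *Epcam* had r from -0.40 to -0.07 and passed in 1 line, *Dock2* (rho -0.20, adjusted permutation p = 0.0122), where r was -0.23 without the 2 farthest libraries and rho did not pass (adjusted permutation p = 0.247). Among libraries without *Ckm*, its r was 0.37 in *Nckap1l*, -0.115 in *Dock2*, 0.08 in *Gpsm3* and -0.05 in *Dok3*. None of these passed (lowest adjusted permutation p = 0.219).

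Of the 14504 genes compared, the 10 genes outside the member list most like it, by mean rho over the members, were *Myl9* (0.85), *Pgm5* (0.84), *Tns1* (0.84), *Rbpms2* (0.83), *Csrp1* (0.83), *Flna* (0.83), *Synm* (0.83), *Atp2b4* (0.82), *Dmpk* (0.82) and *Tmem252* (0.81). *Myl9* encodes the regulatory light chain that *Mylk* phosphorylates, *Flna* a filamin that cross-links actin, and *Synm* an intermediate filament protein that binds desmin. Of the 65 genes of the wider list that were compared, 42 had a mean rho above 0.5, as did 3.35% of all genes. The genes of the list at the other end included the small GTPase *Rhoa* (-0.34) and its kinases *Rock1* (-0.21) and *Rock2* (-0.19), which most cell types express, and they are named here after their values were seen.

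The ends of the range show how far a distal colon sample could depart from the median. The library with the smallest share (*Dok3* KO replicate 11, 0.117%) held 419 CPM of *Myh11*, 58.3 CPM of *Actg2*, 84.3 CPM of *Des* and 9.4 CPM of *Myocd*. Its enteric neuron markers summed to 30.0 CPM, the lowest of all libraries, while its enteric glia markers summed to 885 CPM, the highest, and its interstitial cell of Cajal markers to 1323 CPM, also the highest. The library with the largest share (*Dock2* WT replicate 7, 1.41%) held 5133 CPM of *Myh11* together with 10245 CPM of striated muscle markers and 2609 CPM of skin markers. The next were *Dock2* WT replicate 9 (1.34%) and *Nckap1l* WT replicate 1 (1.30%), with 4039 and 6773 CPM of striated muscle markers.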

How the data were processed

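Ribosomal RNA-depleted stranded libraries of 160 distal colon samples were sequenced as single 100-base reads, aligned to mm10 with STAR and counted per Ensembl gene with featureCounts by the authors, and the deposited values are raw counts. Symbols came from GENCODE M21 (37607 of 39179 identifiers). CPM is counts per 1000000 of the library total. Each line was fitted by the quasi-likelihood test of edgeR 4.0.16 on the raw counts (TMM, filterByExpr, sex as a covariate where both occur), with Benjamini-Hochberg adjustment over all genes tested and a threshold of 0.05. The labels say neither which samples came from treated animals nor that each came from a separate animal, so p-values measure only the spread between these samples, which may be technical. Number blocks are runs of the sample numbers in the titles. The fits were tested on simulated counts.

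The members and lists were chosen with earlier results of these data known. Named genes were the 10 members, the knocked-out gene, genes of the wider list past the threshold (at most 5 in each direction, or the 3 with the smallest p), leading genes of the marker lists and the 10 most alike non-members (mean log2 CPM of at least 1). Likeness was the mean Spearman's rho with the members over log2 CPM centred within groups of line, genotype, sex and number block. Correlations with *Myh11* formed a family of 72, tested with 100000 permutations. Alternatives were DESeq2 1.42.0, limma-voom 3.58.1, library totals in place of TMM, no filter on low counts, sva 3.50.0 with 2 surrogate variables, other covariates, males alone, leaving out libraries with *Ckm* above 10 CPM and leaving out each *Nckap1l* library in turn. The inflammation covariate, the removal of libraries with *Ckm* from the sex comparisons, from the contrast between lines and from the correlations, and the relaxed CArG search were added after seeing the data.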

Additional observations from a re-analysis of the deposited data

Results flagged for a closer look

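In the 8 females of the *Nckap1l* WT group, replicate 8 held 320.3 CPM of *Actg2*, far below the next lowest female at 761.3 CPM. The gap was 0.624 of the range of the group, beyond the 95% critical value of Dixon's test for 8 samples. It was the only such value among 50 tests, each of 1 gene in 1 of 5 groups of 4 to 10 libraries. Chance gives about 1 in 20 such tests, so 1 in 50 is no more than chance gives. The tests within a group were not independent, since the members varied together. The same library had the smallest summed share of the group (0.359%), and it was the only one of the 8 WT libraries of block 1 with *Ckm* at or under 10 CPM.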

How the results depend on the processing

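In the *Nckap1l* line the members past the threshold numbered 0 with all libraries and 2 with 2 surrogate variables, and the median log2 change went from -0.42 to -0.037 without the libraries with *Ckm*. Leaving out each of the 31 libraries in turn gave 0 to 0 members past the threshold and medians from -0.48 to -0.34, with 2 to 9 members at an unadjusted p under 0.05. In the *Dock2* line the median of KO over WT was 0.000 with 2 surrogate variables, -0.004 without the libraries with *Ckm* and -0.29 in males alone, and *Lmod1* turned to 0.099 and 0.088 under the first 2 of these. In the *Dok3* line *Actg2* turned to -0.074 by limma-voom and -0.029 without the libraries with *Ckm*, where *Tagln* turned to -0.009 between the number blocks. In the contrast of *Nckap1l* with the other lines, leaving out the libraries with *Ckm* turned the median to 0.091, *Myh11* to 0.076 and *Des* to 0.191, and *Des* was 0.073 in males alone. The sex difference in the *Nckap1l* line turned to -0.29 with the number block (*Myh11* -0.22) and to -0.25 without the libraries with *Ckm* (*Myh11* -0.12). Without those libraries 0 members differed between WT lines and 0 between the *Nckap1l* number blocks, and 6 differed by sex in the *Dock2* line (median 0.25). In the *Dock2* line that removal was not independent of the members' levels. The causes were not tested. Of the alternative counts, medians and shares of the members, 161 were counted as unchanged (a count within 1.5 times, a median log2 change within the members' median standard error, a share within its spread) and 12 as moved. Of those for single genes or relations, 604 stayed on their side of the threshold or within their error, 8 came to pass, 13 ceased to pass, 17 moved and 10 turned in direction. Both tallies include the closely similar fits that left out each of the 31 *Nckap1l* libraries in turn. They also include results that did not pass under any setting, so they are no measure of how robust the results are. No paired analysis was possible because the labels give no replicate numbers shared between groups. The labels do not give DSS treatment for each library. The *Nckap1l* line cannot be told apart from its day and dose, nor the *Dok3* line from its dose and strain. Much of the exon sequence of *Tagln* overlaps genes of the opposite strand, and *Myocd* has the lowest counts.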
